A study of Mus musculus with 10 samples.

Results

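Metallothioneins are small, cysteine-rich proteins that bind zinc and copper and also take up cadmium. Their genes are switched on by the zinc-sensing transcription factor MTF-1, which binds short metal response elements (MREs) in their promoters and also drives the zinc exporter gene Slc30a1. Mt1 and Mt2 are induced together in many tissues by metals, glucocorticoids and stress, whereas Mt3, first described as a growth inhibitory factor of the brain, is known mainly from neurons and astrocytes and responds little to metals.

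The genes described here are the metallothionein genes Mt1, Mt2 and Mt3, the regulator gene Mtf1 and the exporter gene Slc30a1. These 5 genes, of 19025 in the deposited tables, were chosen by their symbols, and the choice was made with their values already known: Mt1 and Mt2 as genes high in embryonic stem cells and Mt3 as a gene high after trichostatin A. The stem cell and trichostatin A comparisons of these genes are therefore given as values with no test. All 5 were found, each as 1 row per table, and all 5 passed the filter for testing, an FPKM of at least 1 in at least 2 libraries.

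RNA-seq was run on 10 mouse libraries, 2 in each of 5 groups, and all mice and cells were of the C57BL/6 background. ES denotes the B6N-22 line of embryonic stem cells, grown in 20% FBS and 1000 units/ml LIF on mouse embryonic fibroblasts that had been stopped from dividing with mitomycin C. B cells carrying B220 and CD4 T cells were taken from the spleens of mice aged 6 to 8 weeks with magnetic beads, at a purity above 98%. The untreated Th2 group was splenic CD4 T cells stimulated for 5 days with IL-2 at 15 ng/ml and IL-4 at 10 ng/ml, a culture that favours T helper 2 cells. The treated Th2 group had the same culture with 10 nM trichostatin A (TSA), a histone deacetylase inhibitor, added on day 2 and left for 3 days. The ES sample is 1 line. Levels are in FPKM, a unit of fragments scaled by transcript length and library total, so that genes of different length can be compared.

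The libraries held between 9652 and 11456 genes at 1 FPKM or more, and as FPKM carries no read numbers, the depth behind a low value is unknown. Within ES, B and CD4 T cells the library pair agreed within sampling noise, with an SD of the log2 ratio of 0.041, 0.044 and 0.046, and each pair was counted as 1 sample. That SD was 0.274 between the untreated and 0.301 between the treated Th2 libraries. Summed pluripotency markers reached 2826.86 to 2829.15 FPKM in ES libraries, B markers 4158.88 to 4162.68 FPKM in B cells and T markers 1040.04 to 1790.92 FPKM in CD4 T cells and Th2 cultures, each as labelled. The CD4 T libraries also held B markers, at 235.04 to 239.41 FPKM, and myeloid markers, at 332.9 to 334.29 FPKM. The tables are of 2 kinds. Of 1449 symbols with several rows, 1322 had the same value in all their rows in the 4 Th2 libraries' tables and 45 in those of the 6 other libraries, so a level set across the 2 kinds compares tables made differently.

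Mt3, Mt2 and Mt1 lie in this order on the plus strand of mouse chromosome 8. In GENCODE M21 on GRCm38, Mt3 spans 94152607 to 94154146, Mt2 spans 94172664 to 94173568 and Mt1 spans 94179082 to 94180327, each with 3 exons. Mtf1 lies on chromosome 4 from 124802549 to 124849800 with 11 exons, and Slc30a1 on chromosome 1 from 191906767 to 191913247 with 2 exons. The mature transcripts of Mt1 and Mt2 shared no exact run longer than 20 bases, nor did those of Mt2 and Mt3, and the longest between Mt1 and Mt3 was 27 bases. The treatment of reads matching several genes was not given in the sources used here.

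The 250 bases before the start of the 3 metallothionein genes, as a RefSeq promoter table on GRCm38.p6 sets it, are shown because MREs are the known link between zinc and these genes. They run 5′ to 3′ on the plus strand. That start is base 94152607 for Mt3, as in GENCODE, but 94172618 for Mt2 and 94179089 for Mt1, which is 46 bases before and 7 bases after the GENCODE starts. The RefSeq gene record of Mt1, which includes a predicted transcript, starts further upstream, at 94178883. Capitals mark matches to the MRE core, searched as TGCACNC or TGCGCNC on both strands. The windows are chr8:94152357-94152606 for Mt3, chr8:94172368-94172617 for Mt2 and chr8:94178839-94179088 for Mt1.
Mt3: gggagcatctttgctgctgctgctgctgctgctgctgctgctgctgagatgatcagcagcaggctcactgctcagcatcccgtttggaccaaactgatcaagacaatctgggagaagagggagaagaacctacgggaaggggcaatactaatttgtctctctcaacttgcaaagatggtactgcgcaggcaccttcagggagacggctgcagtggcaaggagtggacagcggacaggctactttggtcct
Mt2: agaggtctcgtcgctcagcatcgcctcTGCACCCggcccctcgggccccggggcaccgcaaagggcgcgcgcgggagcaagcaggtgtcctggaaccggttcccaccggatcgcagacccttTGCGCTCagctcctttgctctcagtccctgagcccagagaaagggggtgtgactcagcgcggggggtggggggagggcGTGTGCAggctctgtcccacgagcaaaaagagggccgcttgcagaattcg
Mt1: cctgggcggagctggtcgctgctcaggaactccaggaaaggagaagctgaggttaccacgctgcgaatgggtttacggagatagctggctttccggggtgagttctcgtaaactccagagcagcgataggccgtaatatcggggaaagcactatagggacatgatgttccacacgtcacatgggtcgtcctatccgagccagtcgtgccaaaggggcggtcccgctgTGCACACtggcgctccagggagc

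Upstream of the promoter table's start, from which all positions are counted, the Mt2 window held 3 MRE matches, the Mt1 window 1 and the Mt3 window 0. With the GENCODE start Mt2 had 4 upstream, and with the start of its RefSeq gene record Mt1 had 0. In Mt2 they were TGCACCC at 223 to 217 bases before the start, TGCGCTC at 128 to 122 bases and, read on the minus strand, TGCACAC at 50 to 44 bases. The Mt1 match was TGCACAC at 23 to 17 bases before the start. The table's windows run on for 50 bases past the start, and there Mt1 held TGCACTC at bases 3 to 9 and TGCGCTC at bases 21 to 27, Mt2 held TGCGCAC on the minus strand at bases 5 to 11, and Mt3 held TGCACAC at bases 28 to 34. Over the whole 300 bases this made 4 matches for Mt2, 3 for Mt1 and 1 for Mt3. Slc30a1 had 2 matches and Mtf1 0. Of 32851 promoter windows of that length in the table, 25.7% held at least 1 match, 1.97% at least 3 and 0.52% at least 4. The windows also differed in CpG dinucleotides, the sites of DNA methylation. Mt1 and Mt2 had 24 each, Mt3 had 8, Mtf1 25 and Slc30a1 36, against a median of 7 over all windows. Bases outside these 300 were not searched, so the counts are not those of a whole promoter. These matches describe letters only, and factor binding was not measured.

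Mt1 and Mt2 were among the most abundant transcripts of ES cells. Mt1 was at 803.26 and 816.51 FPKM in the ES libraries, at 1.73 and 1.91 in B cells, at 3.45 and 3.89 in the CD4 T libraries, at 159.98 and 490.40 in untreated and at 340.82 and 639.24 in TSA-treated Th2 cultures. Both ES libraries exceeded every other, and the untreated and treated Th2 libraries overlapped. Mt2 was at 998.74 and 991.43 FPKM in ES cells, 0.25 and 0.16 in B cells, 0.91 and 0.34 in CD4 T cells, 50.11 and 189.48 in untreated and 307.12 and 612.16 in treated Th2 cultures. No 2 groups overlapped for Mt2, and the order was ES, treated Th2, untreated Th2, CD4 T and B. For Mt1 the order of the means was the same. In the ES libraries Mt2 ranked 21 in both and Mt1 ranked 32 and 31 from the top of all genes.

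Mt3 had another order. It was at 98.74 and 162.44 FPKM in TSA-treated Th2 cultures, 5.60 and 8.68 in untreated ones, 3.01 and 2.82 in ES cells, 0.09 and 0.07 in CD4 T libraries, and listed at 0 in both B cell libraries. The treated libraries stood above all others without overlap, and ES cells stood below the untreated Th2 cultures. The rank of Mt3 from the top of all genes was 7293 and 6166 in untreated and 680 and 396 in treated Th2 libraries.

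**Figure D1:**
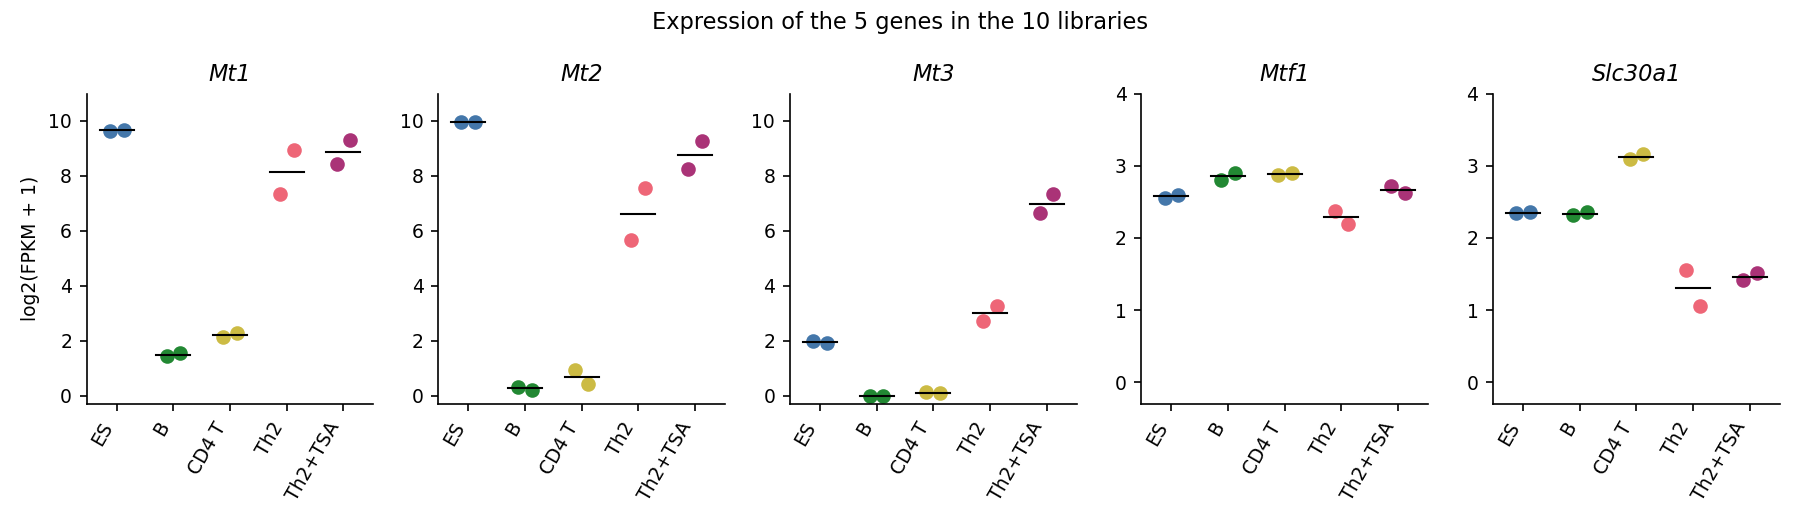
Level of Mt1, Mt2, Mt3, Mtf1 and Slc30a1 as log2(FPKM + 1), by group, with a shorter axis for Mtf1 and Slc30a1. Points are libraries and bars the group mean on that axis. Mt1 and Mt2 are highest in ES cells and Mt3 is highest in TSA-treated Th2 cultures, while Mtf1 and Slc30a1 stay between 1.09 and 7.93 FPKM in all 10 libraries.

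Mtf1, which encodes the zinc sensor MTF-1, varied far less than the metallothionein genes. It was at 6.29 and 6.43 FPKM in the CD4 T libraries, 5.99 and 6.46 in B cells, 5.57 and 5.17 in treated Th2 cultures, 4.89 and 5.06 in ES cells, and 4.18 and 3.58 in untreated Th2 cultures. CD4 T and B cells overlapped, and the other neighbours in this order did not. The groups highest for Mt1 and Mt2 were thus not the highest for Mtf1. The order depended on scaling, since the log2 difference of ES cells from untreated Th2 cultures was 0.30 as deposited and -0.36 after quantile normalization.

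Slc30a1 encodes ZnT1, which moves zinc out of the cell. It was at 7.55 and 7.93 FPKM in the CD4 T libraries, 4.06 and 4.12 in ES cells, 3.97 and 4.14 in B cells, 1.66 and 1.85 in treated and 1.94 and 1.09 in untreated Th2 cultures. CD4 T cells were above all other groups. ES and B cells overlapped, as did the 2 Th2 groups. Its lowest levels were thus in the Th2 cultures, where Mt1 and Mt2 were high.

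The first comparison set ES cells against lymphocytes fresh from the spleen. With 1 sample on each side it has no test, and a gene was counted where log2(FPKM + 1) differed by at least 2 and the higher group had at least 5 FPKM. Against CD4 T cells the log2 difference was 7.44 for Mt1 and 9.26 for Mt2, and against B cells it was 8.17 and 9.69. In FPKM the mean of Mt1 in ES cells, 809.9, was 221 times that in CD4 T cells and 445 times that in B cells. Mt3 fell short of the rule, at 1.86 and 1.97, with 2.92 FPKM ± 0.13 (SD, n = 2 libraries counted as 1 sample) in ES cells. Mtf1 differed by -0.30 and -0.27 and Slc30a1 by -0.78 and 0.01, the last of which turned to -0.42 after quantile normalization. So 2 of the 5 genes were past the rule and higher in ES cells, where 11.9% of 12907 genes were higher against CD4 T cells and 13.4% against B cells. Since these genes were chosen by this contrast, nothing is read from that count. Lower in ES cells were 10.8% and 9.45% of genes, and none of the 5 was among them.

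ES cells were grown with fibroblasts, and 7 fibroblast markers summed to 527.58 to 533.59 FPKM there, against at most 6.48 FPKM in any other library, and all 7 were at 1 FPKM or more there. This sum leaves out Thy1, a T cell gene, a choice made after its values were seen. Whether feeder cells gave part of the ES levels of Mt1 and Mt2 was not tested.

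The comparison of CD4 T with B cells was not used in choosing the genes. None of the 5 was past the size rule, by which 4.27% of 12907 genes differed in either direction. The log2 difference was 0.73 for Mt1, 0.43 for Mt2, 0.11 for Mt3, 0.03 for Mtf1 and 0.79 for Slc30a1, higher in CD4 T cells in each case, but for Mtf1 it turned to -0.04 and -0.12 under median-ratio scaling and quantile normalization. The Slc30a1 means, 7.74 and 4.06 FPKM, differed 1.91-fold and their libraries did not overlap.

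The second comparison set untreated Th2 cultures against the CD4 T cells of the spleen, which is the population such cultures start from. All 5 genes passed the test, limma on log2(FPKM + 1) with p-values adjusted over 12367 genes. The CD4 T sample is also a reference of the stem cell comparison by which Mt1 and Mt2 were chosen. The untreated Th2 libraries are the reference of the one by which Mt3 was chosen. The p-values of these genes are therefore not independent of the choice. The 3 metallothionein genes were higher in Th2 cultures, and Mtf1 and Slc30a1 lower. Among all genes tested 16.9% were called higher and 38.1% lower, and the median difference was -0.28. In bulk RNA, more cells expressing a gene and more RNA of it per cell cannot be told apart.

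Mt1 rose from 3.67 ± 0.31 FPKM (SD, n = 2 libraries counted as 1 sample) to 325 ± 234 FPKM (SD, n = 2), a log2 difference of 5.91 ± 0.90 (SE) with an adjusted p of 0.0169 by limma. Mt2 rose from 0.63 ± 0.40 to 120 ± 99 FPKM, with a log2 difference of 5.92 ± 1.05 and a limma adjusted p of 0.023. Mt3 rose from 0.08 ± 0.01 to 7.14 ± 2.18 FPKM, with a log2 difference of 2.89 ± 0.45 and a limma adjusted p of 0.0177. Every Th2 library was above both CD4 T libraries for each of the 3 genes. The share of all genes without such overlap was not counted, so nothing is read from this. The untreated Th2 libraries themselves differed widely for Mt1 and Mt2, with replicate 2 the higher for both, while Mt3 differed less between them.

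Slc30a1 fell from 7.74 ± 0.27 to 1.51 ± 0.60 FPKM, a log2 difference of -1.82 ± 0.26 (SE) with a limma adjusted p of 0.0143. Mtf1 fell from 6.36 ± 0.10 to 3.88 ± 0.42 FPKM, a log2 difference of -0.60 ± 0.14 with a limma adjusted p of 0.0409. The Mtf1 call did not hold under other scalings, at -0.37 (limma adjusted p = 0.101) with median-ratio scaling and -0.04 (limma adjusted p = 0.869) with quantile normalization. The median over all genes moved from -0.28 to -0.10 and 0.02 under these, and the calls split into 2599 higher and 3710 lower, and 3442 higher and 3405 lower, against 2086 and 4709 as deposited. The other 4 members kept their direction and their call under both.

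With 1 of the 4 Th2 libraries left out, the fit had 1 residual degree of freedom. The calls of Mt1 (limma adjusted p = 0.0549 and 0.0554) and Slc30a1 (0.0559 and 0.0565) ended without treated replicate 1 and without treated replicate 2. The Mt2 call ended without either of those (0.0669 and 0.0675) and without untreated replicate 2 (0.052). The Mt3 call ended without untreated replicate 1 (0.0585) or 2 (0.0744), and the Mtf1 call without any of the 4 (0.0927 to 0.145).

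The CD4 T cells and the Th2 cultures also differed in markers of other cells. The 6 B cell markers summed to 235.04 to 239.41 FPKM in CD4 T cells and 4.35 to 6.29 in untreated Th2 cultures, where Pax5 was listed at 0. The 5 myeloid markers found summed to 332.9 to 334.29 and 2.71 to 3.47 FPKM, with C1qa and C1qb at 0 in the latter. The 6 CD8 and NK cell markers summed to 87.09 to 87.16 and 8.83 to 10.8 FPKM, with Ncr1 at 0 in the latter. Their part in the differences of the 5 genes was not tested.

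The third comparison set TSA-treated against untreated Th2 cultures. It shares the untreated Th2 libraries with the second, so the differences in the 2 comparisons are not independent. The members' values are a description here, on the log2(FPKM + 1) scale. Mt3 had a log2 difference of 3.998 and its mean was 18.3 times higher, at 131 ± 45 against 7.14 ± 2.18 FPKM (SD, n = 2 each). Mt2 had a log2 difference of 2.14 and a mean 3.84 times higher, at 460 ± 216 against 120 ± 99 FPKM. For both genes each treated library was above each untreated one, but the lower treated library of Mt2, at 307.12 FPKM, and the higher untreated one, at 189.48, were closer than the replicates of either group. Without untreated replicate 1 the log2 difference of Mt2 was 1.19, and without untreated replicate 2 it was 3.09. Mt1 had a log2 difference of 0.73 and a mean 1.51 times higher, and its groups overlapped. Its difference turned to -0.07 without untreated replicate 1, and was 1.54 without untreated replicate 2, 1.19 without treated replicate 1 and 0.28 without treated replicate 2. That of Mt3 stayed between 3.64 and 4.35 with 1 library left out. Mtf1 had a log2 difference of 0.39, with no overlap. Slc30a1 had a log2 difference of 0.15, with overlapping groups, and it turned to -0.23 after quantile normalization and -0.10 without untreated replicate 2.

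Level and the ratio of treated to untreated means were ordered differently among the metallothionein genes. These genes were chosen with such values known, and the untreated level is the divisor of that ratio, so nothing is read from the order. On the means, the genes with the higher level in untreated Th2 cultures, Mt1 and then Mt2, had the smaller ratio of treated to untreated means, and Mt3, the lowest there, had the largest. In treated cultures Mt3 was still below Mt1 and Mt2 in each library. The log2 difference of ES cells minus treated cultures was 0.79 for Mt1, 1.20 for Mt2 and -5.03 for Mt3.

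The make-up of the metallothionein transcripts differed between groups as well. Mt1 to Mt4 together came to 1808.82 and 1814.57 FPKM in ES cells, 1.98 and 2.07 in B cells, 4.45 and 4.30 in CD4 T cells, 215.69 and 688.56 in untreated and 746.68 and 1414.43 in treated Th2 cultures. Mt4, a metallothionein of stratified epithelia that is not among the 5 genes, was at 3.81 FPKM in both ES libraries, at 0.59 in treated Th2 replicate 2 and listed at 0 in the other 7. Mt2 made up 55.2% and 54.6% of the sum in ES cells, 23.2% and 27.5% in untreated and 41.1% and 43.3% in treated Th2 cultures. Mt1 was the larger part in untreated cultures, at 74.2% and 71.2%, and was at 45.6% and 45.2% in treated ones. Mt3 took 2.60% and 1.26% of the sum in untreated cultures and 13.2% and 11.5% in treated ones, against 0.17% and 0.16% in ES cells. The Mt1 and Mt2 shares differed less between the replicates of each Th2 group than their levels did.

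**Figure D2:**
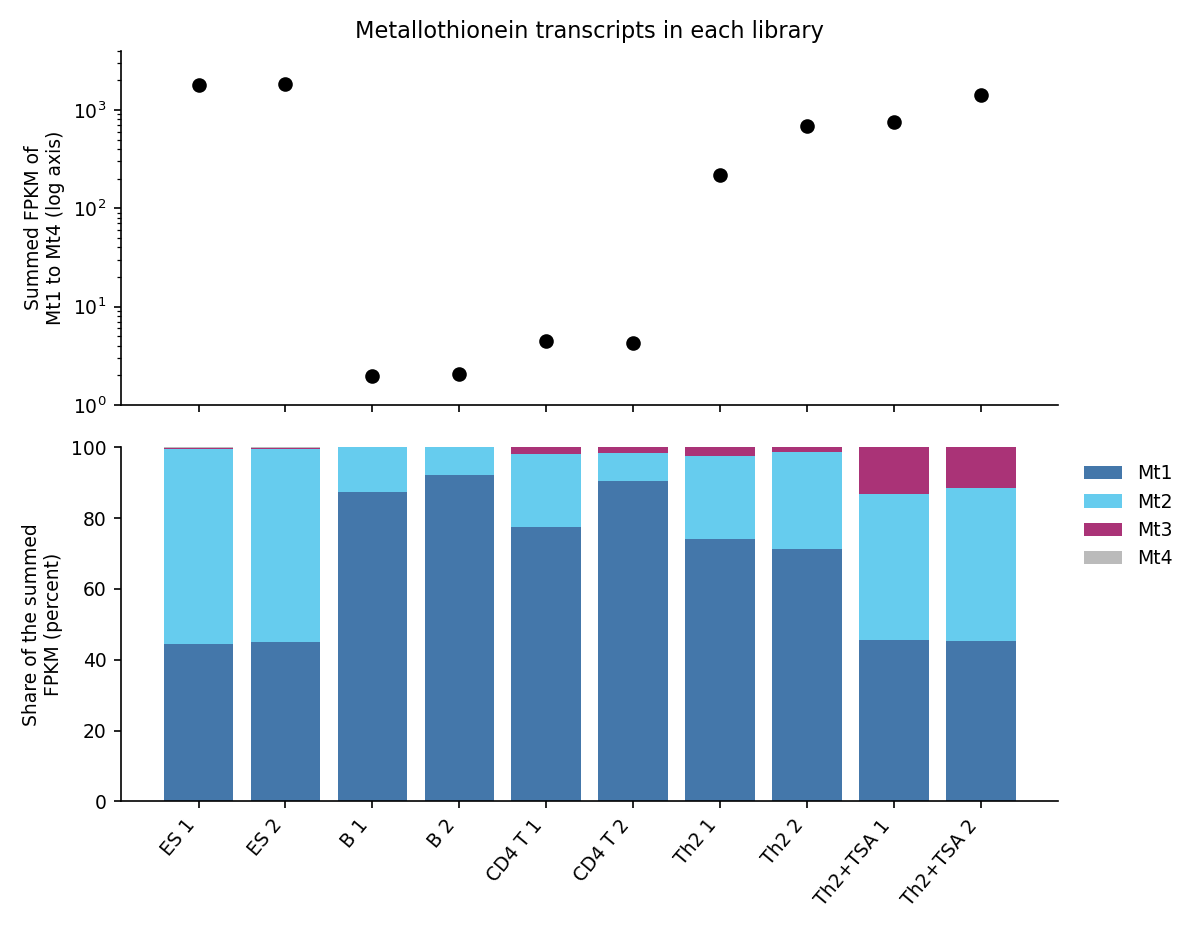
Summed FPKM of Mt1 to Mt4 in each library on a log axis, and the share of each gene in that sum as stacked percentages. The Mt3 share is 13.2% and 11.5% in TSA-treated Th2 libraries and at most 2.60% in the other 8, and Mt2 exceeds Mt1 in ES cells only among these libraries.

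The ratio of Mt2 to Mt1 in FPKM gave the same contrast within each library. It was 1.24 and 1.21 in ES cells, 0.313 and 0.386 in untreated Th2 cultures, and 0.901 and 0.958 in treated ones. The ratio of Mt3 to Mt1 was 0.035 and 0.018 in untreated and 0.29 and 0.254 in treated cultures. In neither ratio did the 2 Th2 groups overlap, although their Mt1 levels did.

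Neuron and glia markers were given beside Mt3 because it is known from those cells. The 8 markers summed to 1.86 to 2.87 FPKM in treated and 0.39 to 0.55 FPKM in untreated Th2 cultures. In neither Th2 group did a marker reach 1 FPKM in both libraries, and Gfap, Aqp4, Rbfox3 and Stmn2 were listed at 0 in the treated libraries. In ES cells the 8 markers summed to 142.08 to 143.08 FPKM, with 2 of them at 1 FPKM or more in both libraries. The astrocyte marker Slc1a2 was at 0.40 and 0.14 FPKM in untreated and 1.42 and 0.94 in treated cultures, and the neuronal tubulin gene Tubb3 at 0.09 and 0.15 and at 0.37 and 1.56. The B cell markers summed to 13.95 to 38.35 FPKM in treated cultures against 4.35 to 6.29 FPKM in untreated ones, the CD8 and NK cell markers to 21.77 to 23.7 against 8.83 to 10.8 FPKM, and the T cell markers to 1040.04 to 1041.84 against 1089.93 to 1102.03 FPKM. Their part in the values of the 5 genes was not tested.

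The genes around the metallothionein cluster were examined to see how far along the chromosome a TSA difference reached. Of 9 other genes in the list, from Gnao1 to Herpud1, limma called Bbs2 higher, Herpud1 lower and 7 neither way in treated cultures. Of all 12907 genes 9.26% were called higher and 4.14% lower. Among the 7, Gnao1 (0.02 to 0.17 FPKM), Slc12a3 (0.04 to 0.13 FPKM) and Mt4 (0 to 0.59 FPKM) were near 0 in the 4 Th2 libraries. Their lack of a call says little about reach. Bbs2, whose protein is part of the BBSome complex of the primary cilium, ends 53.2 kb before Mt3. It was at 0.88 and 0.92 FPKM in untreated and at 3.39 and 3.60 FPKM in treated cultures, a log2 difference of 1.24 ± 0.08 (SE) with a limma adjusted p of 0.0273. That call ended when any 1 of the 4 Th2 libraries was left out, as did most calls over all genes in those fits. The log2 difference of Bbs2 then stayed between 1.21 and 1.28. Herpud1, a gene of the endoplasmic reticulum stress response 232.3 kb from Mt3, fell from 47.0 ± 0.5 to 23.5 ± 3.3 FPKM, with a log2 difference of -0.98 and a limma adjusted p of 0.0394. Its call also ended with any 1 of these libraries left out, and its log2 difference then ranged from -1.12 to -0.84.

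Among the listed genes, those next to the metallothionein members on either side, Mt4 and Nup93, were not called. Mt4, 13.6 kb before Mt3, was listed at 0 in 1 treated and both untreated libraries. Nup93, a nuclear pore gene beyond Mt1, had a log2 difference of 0.12 with a limma adjusted p of 0.769. It lies 60.4 kb from Mt3, farther than Bbs2. Against CD4 T cells, Nudt21, a gene of mRNA 3′ end processing, was higher in untreated Th2 cultures, with a log2 difference of 1.97 and a limma adjusted p of 0.0035. Bbs2, Slc12a3 and Ogfod1 were lower, the last not called after quantile normalization (limma adjusted p = 0.181) or without untreated replicate 1 or 2 (at most 0.091), so that Bbs2 differed from Mt1, Mt2 and Mt3 in direction there.

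**Figure D3:**
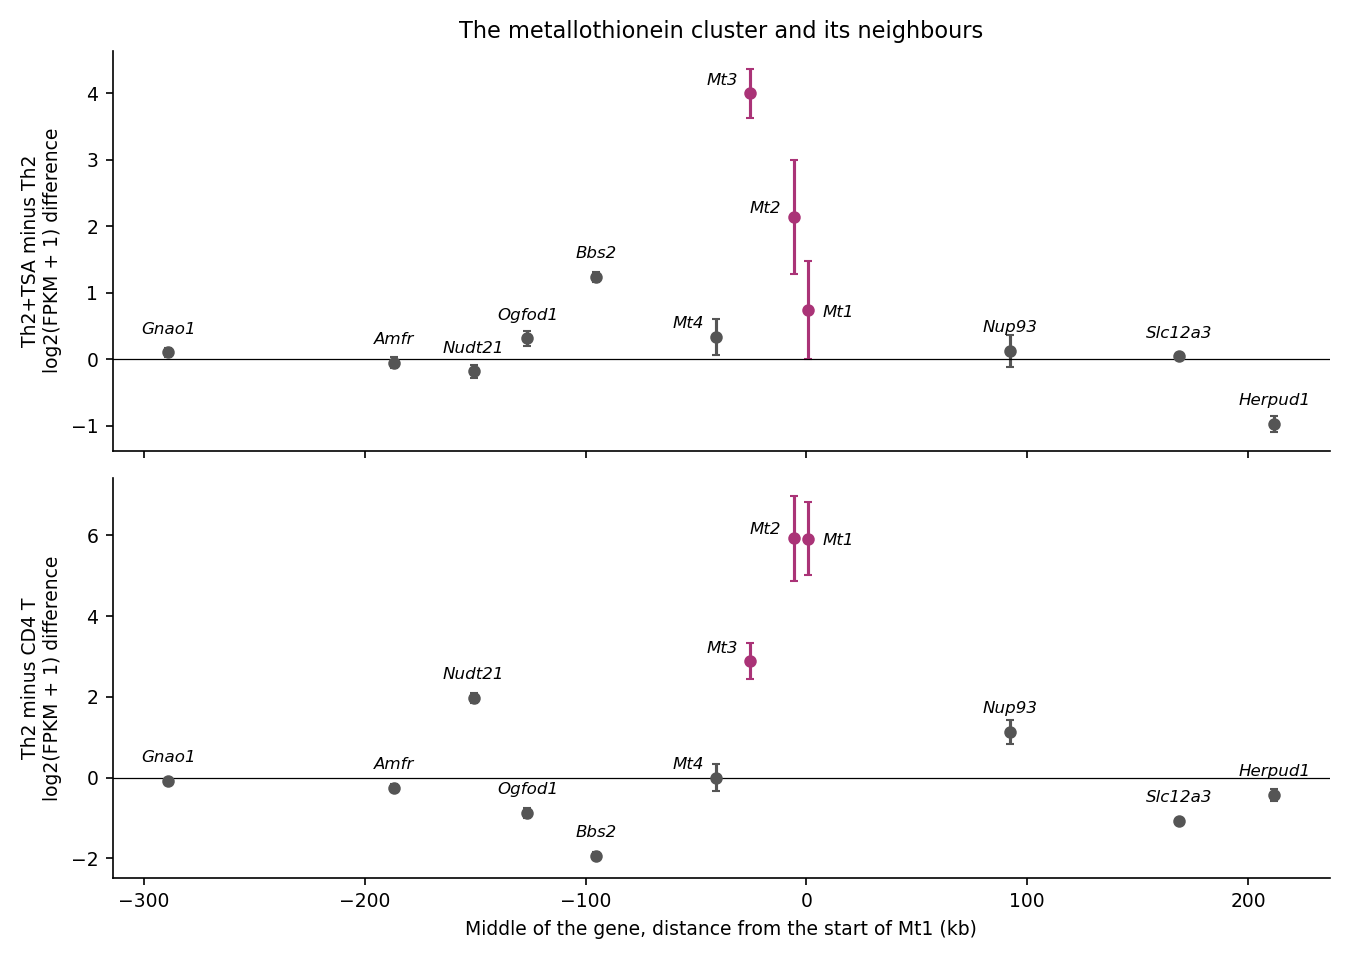
Log2 difference in FPKM + 1 for each gene of the metallothionein neighbourhood, by its distance in kb from the Mt1 start, for treated minus untreated Th2 cultures and for untreated Th2 cultures minus CD4 T cells, with limma SE as bars. Mt3 stands highest in the TSA panel at 3.998, and Mt1 and Mt2 stand highest in the other at 5.91 and 5.92.

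The other genes of zinc transport were taken from lists with the 5 genes left out. In untreated Th2 cultures against CD4 T cells, limma called 6 of 17 tested zinc transporters higher, 3 lower and 8 neither. Over all genes 16.9% were called higher and 38.1% lower. The median log2 difference of the transporters was -0.06, against -0.28 over all genes. That median was 0.18 and 0.11 under median-ratio scaling and quantile normalization, and Slc39a3 was then the 1 transporter called lower. With 1 of the 4 Th2 libraries left out, 3 or 4 were called higher and 0 to 2 lower. Among the exporters, the relatives of Slc30a1, 1 of 7 rose and 1 fell. Slc30a2 rose from 0.12 to 3.75 FPKM (limma adjusted p = 0.000828) and Slc30a7, which loads zinc into the secretory pathway, fell from 13.5 to 9.04 FPKM (0.0348). The Slc30a7 call was lost with median-ratio scaling (limma adjusted p = 0.112), with quantile normalization (0.659) and with any 1 Th2 library left out (0.0799 to 0.154).

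Among 10 importers, which bring zinc into the cytosol, 5 rose and 2 fell, where 16.9% and 38.1% of all genes did. Under median-ratio scaling and under quantile normalization 5 were called higher and 1 lower. Slc39a8, encoding ZIP8, rose from 1.68 to 14.2 FPKM (log2 2.51, limma adjusted p = 0.00502) and Slc39a6 from 9.41 to 36.9 FPKM (log2 1.85, limma adjusted p = 0.0151). Slc39a4 also rose, from 3.60 to 9.84 FPKM (limma adjusted p = 0.0211), and Slc39a3 fell from 10.6 to 3.88 FPKM (0.0166). The Slc39a8 call held with any 1 Th2 library left out. That of Slc39a6 ended without treated replicate 1 or 2 (0.0509 and 0.0513), that of Slc39a3 without untreated replicate 1 or 2 (0.077 and 0.0655) and that of Slc39a4 without any of the 4 (0.0523 to 0.0695).

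With TSA, limma called 0 of the 17 zinc transporters higher and 3 lower, where 9.26% and 4.14% of all genes were called. All 3 calls ended with any 1 of the 4 Th2 libraries left out, as did most calls over all genes in those fits. At an unadjusted p under 0.05 the numbers were 3 and 8, and quantile normalization gave 1 higher and 3 lower. The median log2 difference was -0.29, against 0.02 over all genes. Slc39a4 fell from 9.84 ± 1.70 to 2.92 ± 0.36 FPKM (log2 -1.46 ± 0.17, limma adjusted p = 0.0371), and Slc39a10 from 9.15 ± 0.83 to 2.90 ± 0.69 FPKM (log2 -1.39 ± 0.18, limma adjusted p = 0.0402). The third was the exporter gene Slc30a2, from 3.75 to 1.83 FPKM (limma adjusted p = 0.0255). All 3 were lower in the cultures where Mt2 and Mt3 were higher.

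**Figure D4:**
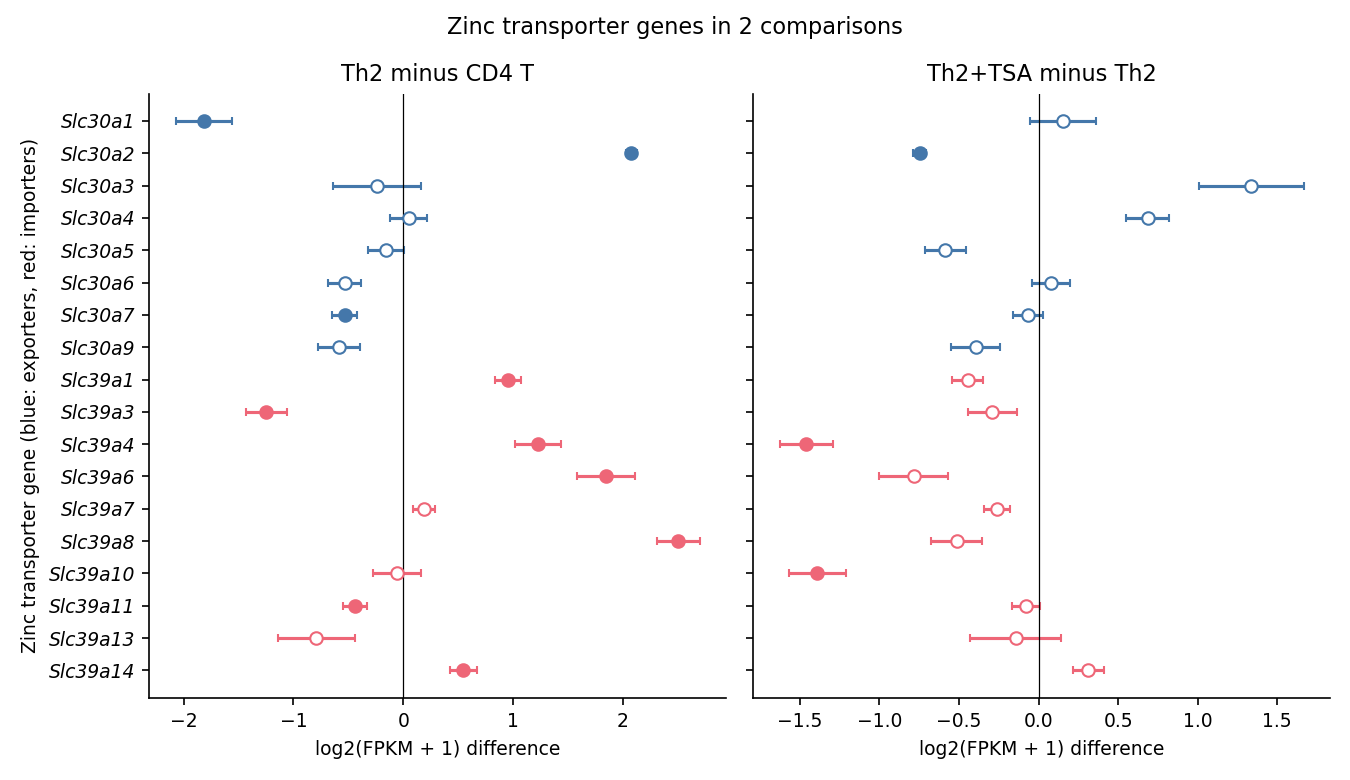
Log2 difference in FPKM + 1 for the tested zinc exporter and importer genes and Slc30a1, in untreated Th2 cultures minus CD4 T cells and in treated minus untreated cultures, with limma SE as bars. Filled points passed a limma adjusted p of 0.05. Slc30a1 is open in the TSA panel because no test is given for it there. In that panel the filled points are Slc39a4, Slc39a10 and Slc30a2, all below 0.

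Copper, iron and Nrf2 genes were counted with the zinc transporters, 50 tested genes in all. In untreated Th2 cultures against CD4 T cells 16 were called higher and 15 lower by limma, and 22 and 11 after quantile normalization. Without untreated replicate 1 the total was 16 called and without replicate 2 it was 15. Of the 11 iron genes 3 rose and 6 fell, where 16.9% and 38.1% of all genes did. With 1 Th2 library left out 1 or 2 were called higher and 4 lower. The myeloid markers given above were lower in the same cultures, and their part was not tested. Hmox1, encoding the heme-degrading enzyme heme oxygenase, fell from 107 to 9.64 FPKM (log2 -3.39, limma adjusted p = 0.0106). The iron exporter gene Slc40a1 was at 53.34 and 53.93 FPKM in CD4 T cells and listed at 0 in both untreated Th2 libraries. Of 12 Nrf2 pathway genes 4 rose and 3 fell, the largest rise being that of the cystine transporter gene Slc7a11, with a log2 difference of 3.03 (limma adjusted p = 0.00134).

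With TSA 2 of the 50 were called higher and 5 lower, where 9.26% and 4.14% of all genes were. None of these 7 stayed called when any 1 Th2 library was left out, and most calls over all genes ended in those fits too. Cox17, a copper chaperone gene, rose from 148 to 327 FPKM (limma adjusted p = 0.0385) and Slc11a2, an iron importer gene, from 11.5 to 20.1 FPKM (0.0336). Sco2 and Srxn1 fell. Glucocorticoids are another known inducer of Mt1 and Mt2, and 8 glucocorticoid response genes were counted too. In treated cultures limma called 0 of them, where 9.26% of all genes were called higher and 4.14% lower. At those shares a count of 0 among 8 genes says little. At an unadjusted limma p under 0.05 the count was 1. In untreated cultures against CD4 T cells 4 of the 8 fell and 1 rose, where 38.1% and 16.9% of all genes did. Tsc22d3 had a log2 difference of -3.51 (limma adjusted p = 0.00555) and Fkbp5 one of 1.06 (0.0136), a call that ended without untreated replicate 1 (0.0568).

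In ES cells 8 of the 50 metal genes were past the size rule and higher than in CD4 T cells, and 0 were lower. Of all 12907 genes 11.9% were higher and 10.8% lower by this rule. The median log2 difference was 0.42, against 0.16 over all genes. The Nrf2 pathway gave 5 of the 8, among them Srxn1 with a log2 difference of 3.94 and the quinone reductase gene Nqo1 with 3.73. Slc39a14 and Slc39a4, both zinc importer genes, differed by 2.09 each. Against B cells 11 were higher and 1 lower, where 13.4% and 9.45% of all genes were. Between CD4 T and B cells none was past the rule, where 4.27% of all genes were.

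Against untreated Th2 cultures, Mt2 was past the rule as the data were deposited and the other 4 genes were not. It was higher in ES cells by 3.34 in log2, where 10.5% of 12367 genes were higher and 6.54% lower. Mt1 was higher by 1.53, but by 2.20 after quantile normalization and 2.33 without untreated replicate 2, both past the rule. Mt3 was lower by 1.03. Of the 50 metal genes 5 were higher and 2 lower. Nqo1 was higher in ES cells by 3.37 and Slc39a8 was lower, at 0.94 against 14.2 FPKM.

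Likeness of pattern was measured as Pearson's r of log2(FPKM + 1) over the 7 samples, against 10692 genes. It is a description without a test, since few samples let many genes correlate. Mt1 and Mt2 had r = 0.987 with each other, and Mt3 had 0.726 with Mt1 and 0.742 with Mt2. Closest to Mt1 were Pelo at 0.997, Psmd8 at 0.996 and Tomm20 at 0.996, and closest to Mt2 were Mrpl28 at 0.996, Cdc34 at 0.995 and Cby1 at 0.994. Closest to Mt3 was S100a11, a calcium-binding protein gene, at 0.999, with 78.7 FPKM in ES cells, 31.7 in B cells, 38.0 in CD4 T cells, 129 in untreated and 690 in treated Th2 cultures. Kif1c at 0.998 and Acbd7 at 0.996 followed. Closest to Mtf1 were Dock9 at 0.985, Trim44 at 0.969 and Tmem19 at 0.968, and closest to Slc30a1 were Rmnd5a at 0.992, Ece1 at 0.986 and Hibch at 0.985. Genes above 0.95 numbered 218 for Mt1, 155 for Mt2, 67 for Mt3, 14 for Mtf1 and 71 for Slc30a1. Mtf1 had r = -0.664 with Mt1 and 0.739 with Slc30a1.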

How the data were processed

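The deposited tables give 1 FPKM value per transcript row, with no header. The submitters' processing notes name Cufflinks 2.0.2, TopHat 1.3.2, Bowtie 0.12.8 and mm10. Settings and strand use were not given in the sources used here. Of 21035 rows per table, 345 were named from their accession, and a gene took its highest row. The Th2 files mostly repeat 1 value per gene.

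Groups and replicate numbers came from the sample titles, which number libraries of every group as exp1 and exp2 and do not say what a number shares. Separate animals or cultures are not stated for replicates, so the p-values rest on a spread among these samples that may be technical. The ES, B and CD4 T pairs were each averaged to 1 sample, and limma 3.58.1 in R 4.3.3 was fitted to log2(FPKM + 1) of 7 samples with 2 residual degrees of freedom and a prior spread following mean expression. This lends the spread of the Th2 groups to the lone CD4 T sample. Tests were two-sided with Benjamini-Hochberg adjustment over 12907 genes that reached 1 FPKM in at least 2 libraries, and 540 listed at 0 throughout 1 kind of table were left out of Th2 against CD4 T cells. An adjusted p under 0.05 was a call. The log2(FPKM + 1) scale understates the change of low genes. The fit was also run on simulated data, for the TSA comparison only and with independent noise in each library. That run does not bear on Th2 against CD4 T cells.

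The members and lists were chosen with earlier results of these data known. Named are the 5 members, up to 4 genes per list by size of difference among those called or past the size rule, the cluster's neighbours, and 3 genes per member by r. Alternatives were the row summary, pseudocount, filter, scaling, separate libraries, a replicate block and leaving out each library.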

Additional observations from a re-analysis of the deposited data

How the results depend on the processing

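All directions of the members between Th2 cultures and CD4 T cells held under the alternatives run. Beyond the changes given with the results, the Mt3 difference was 1.25 (limma adjusted p = 0.0738) with a pseudocount of 5. With 1 library left out the difference ranged from 5.11 to 6.72 for Mt1, 4.97 to 6.87 for Mt2, 2.61 to 3.16 for Mt3, -0.684 to -0.507 for Mtf1 and -2.06 to -1.57 for Slc30a1. The Mtf1 difference was -0.375 with median-ratio scaling and -0.036 with quantile normalization. Genes called between Th2 and CD4 T cells numbered 6795, and 3188 to 6795 with 1 library left out, the lowest counts being 3443 and 3188 without untreated replicates 1 and 2. For TSA they numbered 1729, but 771 with no filter, 6774 with 10 separate libraries and 0 to 273 with 1 Th2 library left out. The 2 counts of 0 from limma, without untreated replicate 1 or 2, stood beside 2743 and 2677 genes at an unadjusted p under 0.05. Quantile normalization gave 1125 higher and 1027 lower with TSA, against 1195 and 534. Metal genes called numbered 31 between Th2 and CD4 T cells, and 15 to 32 with 1 library left out. With TSA they numbered 7, but 4 with no filter, 12 with quantile normalization, 30 with 10 separate libraries and 0 to 7 with 1 library left out. A pseudocount of 5 lowered the genes past the size rule from 2920 to 1537 for ES against CD4 T cells, 2947 to 1609 against B cells, 2112 to 1032 against untreated Th2 cultures, and from 551 to 274 for CD4 T against B cells. Same-numbered Th2 and treated libraries deviated together, with r = 0.577 over 12907 genes, but the labels do not say that a number marks a shared culture. With the number as a replicate block, which leaves 1 residual degree of freedom, limma called 2664 genes higher and 5383 lower between Th2 and CD4 T cells, 1235 and 661 with TSA, and 12 metal genes with TSA. All 5 members stayed called between Th2 and CD4 T cells under the block. Depth is unknown, so the levels of Mt2 and Mt3 in B and CD4 T cells, all under 1 FPKM, have no counting interval.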
